A study of Mus musculus with 9 samples.

Results

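The 10 genes described here report the output of the MEK-ERK pathway: the feedback inhibitors Dusp6, Dusp4, Spry2, Spry4, Spred1 and Spred2, the ETS transcription factor genes Etv4 and Etv5, and the immediate early genes Egr1 and Fos. They were taken by gene symbol from a table of 16636 genes, in which all 10 were present, and all 10 passed the filter on low counts that left 14246 genes for testing. RNA was sequenced in bulk from E14 cells, a single wild-type line of mouse embryonic stem cells, with 3 libraries in each of 3 groups. Untreated cells received no siRNA, siLuc cells received a control siRNA against luciferase, and siStag3 cells received siRNA against Stag3, which encodes a cohesin subunit. Transfection with RNAiMax lipid was done at seeding and repeated the next day, with 50 pmol of siRNA each time, and cells were taken after 48 hours, so that either siRNA group differs from untreated cells by lipid and siRNA together. All 3 groups were kept on fibronectin in naive medium with LIF at 1000 U/ml, the MEK inhibitor PD0325901 at 1 µM and the GSK3 inhibitor CHIR99021 at 3 µM. Every level below was therefore measured under a MEK inhibitor, and the series holds no group without it.

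In this pathway a growth factor such as FGF4 activates its receptor, then RAS, RAF, MEK and finally the kinase ERK, which phosphorylates transcription factors and switches on target genes. Several targets turn the pathway down again: dual-specificity phosphatases remove phosphate from ERK, and Sprouty and Spred proteins act further up, at the level of RAS and RAF. In mouse embryonic stem cells FGF4-ERK signalling favours exit from the naive state, and blocking MEK is one part of the medium that holds cells in that state.

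The deposited column names give each library a set number and an experiment number, whose meaning the labels do not state. Each group had libraries of Set 1 experiment 1 and Set 1 experiment 3 and 1 library of Set 3, which was experiment 5 for untreated and siStag3 cells and experiment 1 for siLuc cells. Libraries held 29332436 to 44527534 counts, so that 3 counts, the smallest amount taken as told from 0, equalled 0.0674 to 0.102 CPM (counts relative to the total of the library, scaled by the trimmed mean of M values). The siRNA target was lower in siStag3 cells: Stag3 stood at 13.5, 15.2 and 15.6 CPM there, against 22.5 to 26.7 CPM in siLuc cells and 24.1 to 28.6 CPM in untreated cells. The difference from siLuc cells was -0.71 on the log2 scale (SE 0.0722, edgeR adjusted p = 0.0020), and without the siStag3 library of Set 1 experiment 1 it was -0.67 with an adjusted p of 0.0582 in the same edgeR test. The 14 naive stem cell markers summed to 5495 to 6001 CPM over all libraries. The summed 10 primitive endoderm markers lay at 69.5 to 95.5 CPM in untreated, 61.2 to 76.0 CPM in siLuc and 60.9 to 76.3 CPM in siStag3 cells, of which Lama1 alone gave 53.4 to 89.0 CPM, while the defining genes Gata4, Gata6 and Sox17 were at 0.412 CPM or less in every library. The share of counts from mitochondrial genes was 3.48% to 5.33% in untreated, 5.98% to 6.73% in siLuc and 4.10% to 6.78% in siStag3 cells, and its part in the results below was not tested.

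The RefSeq promoter table (build GRCm38.p6) held entries for 6 of the 10 genes: Dusp6, Etv5, Fos, Spred1, Spred2 and Spry2. The 250 bases before the start are shown for Fos and Dusp6, an immediate early gene and a feedback phosphatase whose log2 differences after control siRNA, given below, were -0.39 (not past the threshold) and 0.39. Capitals mark TGACG (the core of a cyclic AMP response element), GGAAGT (an ETS factor core) and TATAAA (the TATA box), searched on both strands together with the CArG box of serum response factor.
Fos (chr12:85473640-85473889, plus strand): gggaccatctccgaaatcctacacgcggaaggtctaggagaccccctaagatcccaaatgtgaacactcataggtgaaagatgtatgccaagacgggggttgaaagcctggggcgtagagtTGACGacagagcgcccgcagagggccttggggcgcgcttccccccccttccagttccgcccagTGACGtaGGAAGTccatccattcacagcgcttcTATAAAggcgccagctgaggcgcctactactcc
Dusp6 (chr10:99262981-99263230, plus strand): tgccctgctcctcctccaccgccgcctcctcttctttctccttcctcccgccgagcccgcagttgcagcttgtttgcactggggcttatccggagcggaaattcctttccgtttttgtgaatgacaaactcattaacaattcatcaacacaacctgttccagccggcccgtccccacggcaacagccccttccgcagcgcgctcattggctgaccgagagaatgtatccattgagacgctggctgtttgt
The Fos window held TGACG at 129 and 66 bases before the start, GGAAGT at 59 and TATAAA at 33, with no overlap among them. It held no CArG box. Bases further from the start than 250 were not searched, so a CArG box there would not be seen. The Dusp6 window held none of the 4 motifs, and neither did those of Spred1 and Spry2. Spred2 held TGACG at 51 and GGAAGT at 33 bases before the start, and 1 Etv5 window held GGAAGT at 217. The log2 differences of Spred2 and Etv5 after control siRNA were 0.13 and 0.088, neither past the threshold. Among 32851 promoter windows of the same length, TGACG was present in 17.8%, GGAAGT in 19.7%, TATAAA in 12.4% and a CArG box in 1.47%. These matches describe the letters in the windows and carry no measurement of binding.

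The 10 genes spanned a wide range of levels in the presence of the inhibitor. Per kilobase of transcript, Etv5 was highest at 117 ± 10.1 CPM per kb (mean ± SD over 9 libraries), at the 96.1st percentile of the genes tested. Egr1 followed at 21.8 ± 12.5, Spred2 at 17.2 ± 1.60, Spry2 at 16.8 ± 1.47, Fos at 14.0 ± 7.45 and Etv4 at 12.6 ± 4.44 CPM per kb. Spred1 at 4.86 ± 1.27 and Dusp6 at 3.18 ± 0.612 CPM per kb were near the middle of all genes, at the 45.7th and 39.2nd percentiles. Spry4 at 0.361 ± 0.102 and Dusp4 at 0.244 ± 0.0609 CPM per kb were the lowest, at the 14.6th and 10.6th percentiles. In this order the ranges over the 9 libraries were separate only between Etv5 and Egr1, between Etv4 and Spred1, and between Dusp6 and Spry4. All other neighbours overlapped. The spread over libraries also differed, with coefficients of variation of 57.4% for Egr1, 53.2% for Fos and 35.2% for Etv4 but 8.60% for Etv5, 8.72% for Spry2 and 9.32% for Spred2.

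**Figure D1:**
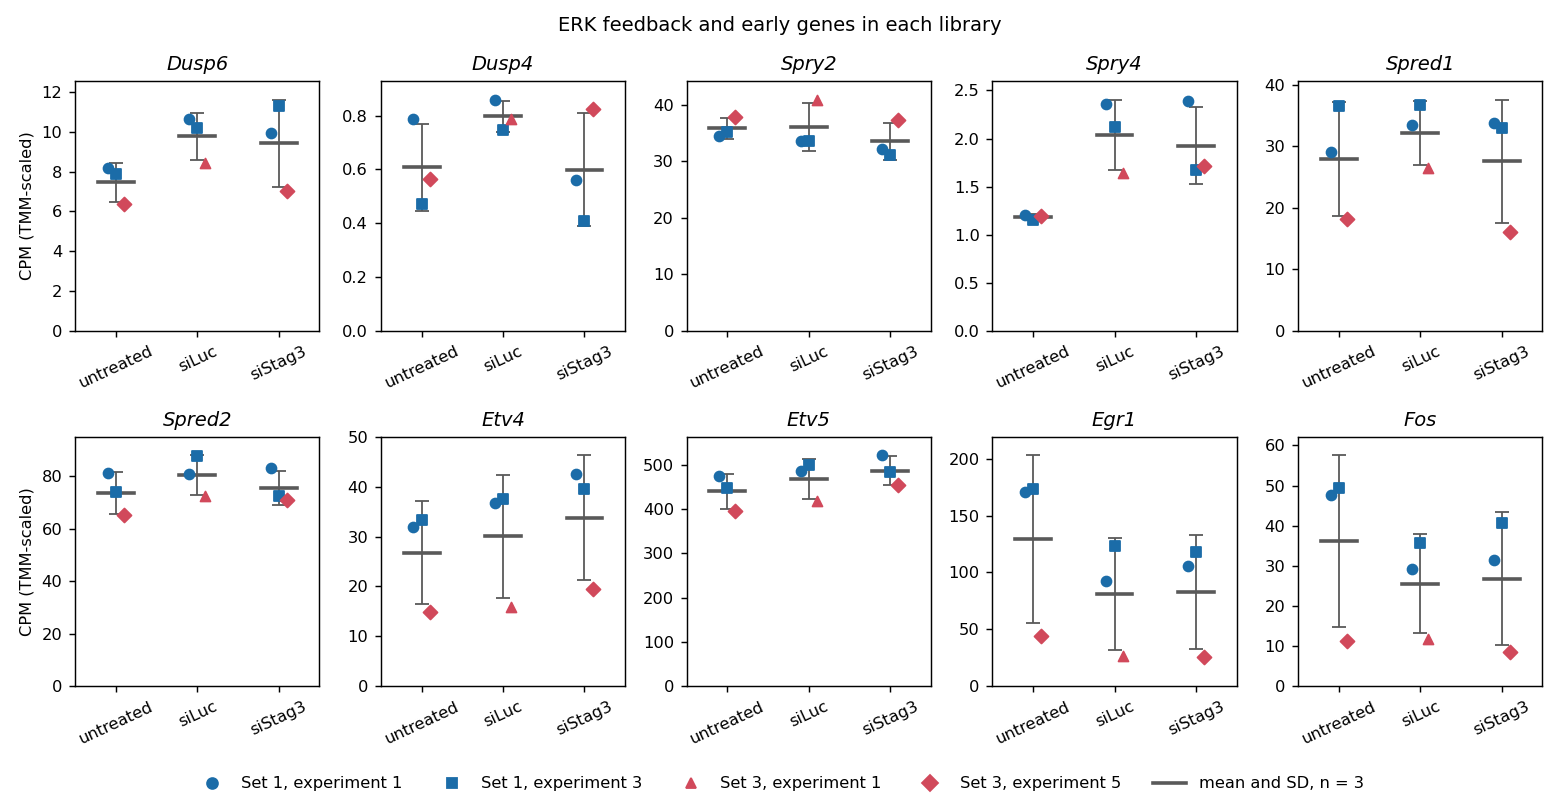
Level of each of the 10 genes in CPM (vertical axes, linear from 0) in the 9 libraries, by group (horizontal axis), with the group mean and SD as bars; blue marks are Set 1 and red marks Set 3. Egr1, Fos and Etv4 in Set 3 lie far below Set 1 in every group, and untreated libraries have the lowest Spry4 values, 1.15 to 1.21 CPM.

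Transfection with lipid and siRNA left Egr1 lower and some feedback and ETS genes higher than in untreated cells. Dusp6 and Spry4 rose and Egr1 fell with control siRNA, and Etv4 rose and Egr1 fell with Stag3 siRNA. These were 3 of 10 genes against 4.20% of all genes tested for siLuc against untreated, and 2 of 10 against 2.53% for siStag3 against untreated. Both comparisons use the same 3 untreated libraries. With experiment number added, the fit matched the siLuc library of Set 3 exactly, so that this library added nothing to the group differences. The siLuc differences then rested on the siLuc libraries of Set 1. The calls for Egr1 and Etv4 held, and those for Dusp6 (edgeR adjusted p = 0.279) and Spry4 (edgeR adjusted p = 0.0988) were lost. Fos passed in both comparisons, at -0.58 for siLuc (edgeR adjusted p = 0.0125) and -0.44 for siStag3 (edgeR adjusted p = 0.0130). The siLuc value for Fos thus left out Set 3, where siLuc differed from untreated by 0.057. The main fit had a term for the set and none for experiment number, and 95% intervals are given from the main fit. Adjusted p-values are from edgeR's quasi-likelihood test over all genes tested. The p-values measure the spread between these libraries, which the study describes as biological replicates, and in bulk RNA fewer expressing cells and less RNA per cell cannot be told apart. Over the 10 genes the median log2 difference from untreated was 0.14 with control siRNA and 0.0072 with Stag3 siRNA, where all genes tested had medians of -0.0024 and -0.0056.

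Among the immediate early genes, Egr1, a zinc finger transcription factor induced within minutes of ERK activation, was lower in both transfected groups. In the order Set 1 experiment 1, Set 1 experiment 3 and Set 3, used for all values from here on, Egr1 stood at 171, 173 and 44.4 CPM in untreated cells, 92.8, 123 and 26.9 CPM in siLuc cells and 106, 118 and 25.8 CPM in siStag3 cells. Within each set every transfected library lay below every untreated one. Egr1 fell by 0.69 on the log2 scale in siLuc cells (SE 0.0903, interval -0.88 to -0.49, edgeR adjusted p = 0.0016) and by 0.67 in siStag3 cells (SE 0.0903, interval -0.87 to -0.47, edgeR adjusted p = 0.0018). The siLuc difference was -0.88 and -0.49 in the 2 experiments of Set 1 and -0.72 in Set 3, and the siStag3 difference was -0.69, -0.55 and -0.78. Correcting each library for GC content, which is 57.3% in Egr1, left differences of -0.56 and -0.58 with edgeR adjusted p-values of 0.0696 and 0.0622, and a fit with no set term gave edgeR adjusted p-values of 0.716 and 0.933.

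Fos, a subunit of the AP-1 transcription factor, had values of 47.7, 49.4 and 11.4 CPM in untreated cells, 29.3, 35.7 and 11.8 CPM in siLuc cells and 31.4, 40.6 and 8.48 CPM in siStag3 cells. In Set 1 the untreated libraries were the highest, while in Set 3 the untreated library lay between the siStag3 and siLuc libraries. The differences from untreated did not pass the threshold, at -0.39 for siLuc (SE 0.150, edgeR adjusted p = 0.132) and -0.42 for siStag3 (SE 0.150, edgeR adjusted p = 0.198). DESeq2's Wald test on the same counts put Fos past the threshold in both, with -0.38 and an adjusted p of 0.037 for siLuc, and -0.42 and an adjusted p of 0.040 for siStag3. The siLuc difference was -0.70 and -0.47 in Set 1 and 0.057 in Set 3; without the siLuc library of Set 3 it was -0.57 with an edgeR adjusted p of 0.0382, and the siStag3 difference was -0.42 with an edgeR adjusted p of 0.0390. The test of the difference between sets gave 0.63 on the log2 scale (edgeR adjusted p = 0.623), where 0.0140% of all genes tested passed, and for siStag3 against untreated, where 0.00702% passed, none of the 10 genes did.

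The MAP kinase phosphatases differed in level and in response. Dusp6, which encodes a cytoplasmic phosphatase selective for ERK, read 8.16, 7.89 and 6.35 CPM in untreated cells, 10.6, 10.2 and 8.44 CPM in siLuc cells and 9.95, 11.3 and 7.03 CPM in siStag3 cells. All 3 siLuc libraries were above all 3 untreated ones, as for 9.59% of all genes tested, whereas siStag3 and untreated libraries overlapped. Dusp6 rose by 0.39 in siLuc cells (SE 0.0993, interval 0.17 to 0.60, edgeR adjusted p = 0.0465), with 0.38 and 0.37 in the 2 experiments of Set 1 and 0.41 in Set 3. The siStag3 difference of 0.32 (SE 0.0997, edgeR adjusted p = 0.111) did not pass the threshold. It was 0.28 and 0.52 in Set 1 and 0.15 in Set 3, and without the siStag3 library of Set 3 it was 0.41 with an edgeR adjusted p of 0.0247. The Dusp6 call in siLuc cells was close to the threshold: it held in 6 of 11 other settings and in 2 of 9 fits that left out 1 library, with edgeR adjusted p-values of 0.0123 to 0.203 over those 9, and it held only without the siStag3 library of Set 1 experiment 3 or of Set 3. Dusp4, a nuclear phosphatase of the same family, had 13 to 28 counts per library, or 0.410 to 0.859 CPM. Its group means were 0.607 ± 0.161, 0.797 ± 0.0578 and 0.599 ± 0.210 CPM (SD, n = 3) in untreated, siLuc and siStag3 cells, and no difference was detectable at this depth.

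Among the Sprouty genes, whose products restrain receptor signalling to RAS, Spry4 was at a low level and higher with control siRNA, and Spry2 passed the threshold in neither comparison with untreated cells. Spry4 stood at 1.21, 1.15 and 1.19 CPM in untreated cells, 2.36, 2.12 and 1.64 CPM in siLuc cells and 2.39, 1.67 and 1.72 CPM in siStag3 cells, from 39 to 85 counts per library. Every transfected library was above every untreated one, and of all genes tested 4.63% had every siStag3 library above. Spry4 rose by 0.77 in siLuc cells (SE 0.190, interval 0.36 to 1.17, edgeR adjusted p = 0.0402), and the siStag3 difference was 0.69 (SE 0.191, interval 0.28 to 1.10, edgeR adjusted p = 0.0799). The siLuc call held in 6 of 10 other settings and in 2 of 9 fits that left out 1 library, namely those without the siStag3 library of Set 1 experiment 3 or of Set 3, with edgeR adjusted p-values of 0.0166 to 0.138 over the 9. Spry2 read 34.4, 35.1 and 37.8 CPM in untreated, 33.6, 33.6 and 40.9 CPM in siLuc and 32.1, 31.2 and 37.2 CPM in siStag3 cells. Its differences from untreated were 0.0056 (interval -0.13 to 0.14) and -0.098 (interval -0.23 to 0.037).

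The Spred genes encode membrane-associated inhibitors of RAF activation, and neither passed the threshold against untreated cells. Spred1 read 29.1, 36.6 and 18.1 CPM in untreated, 33.5, 36.7 and 26.4 CPM in siLuc and 33.7, 33.0 and 16.0 CPM in siStag3 cells. Its differences were 0.24 for siLuc (SE 0.125, edgeR adjusted p = 0.227) and -0.032 for siStag3 (SE 0.126, edgeR adjusted p = 0.915). Spred2 ran from 65.4 to 87.9 CPM over the 9 libraries, with group means of 73.7 ± 8.06, 80.5 ± 7.60 and 75.5 ± 6.59 CPM (SD, n = 3) in untreated, siLuc and siStag3 cells, which overlapped in range.

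Etv4 and Etv5, transcription factors of the PEA3 group within the ETS family and widely used readouts of FGF-ERK signalling, were lowest in untreated cells within each set. Etv4 read 32.0, 33.4 and 14.9 CPM in untreated, 36.8, 37.6 and 15.8 CPM in siLuc and 42.5, 39.5 and 19.5 CPM in siStag3 cells. Etv4 rose by 0.34 in siStag3 cells (SE 0.0666, interval 0.20 to 0.49, edgeR adjusted p = 0.0145), with 0.41 and 0.24 in Set 1 and 0.38 in Set 3. The call was lost with no set term (edgeR adjusted p = 0.943) and in 3 of 9 fits that left out 1 library, those without untreated Set 1 experiment 1, untreated Set 3 or siStag3 Set 1 experiment 1, with edgeR adjusted p-values of 0.0090 to 0.121 over the 9. In siLuc cells the Etv4 difference was 0.16 (SE 0.0668, edgeR adjusted p = 0.149), and after correction for GC content, which is 58.7% in Etv4, it was 0.33 with an edgeR adjusted p of 0.0018. Etv5 read 475, 448 and 396 CPM in untreated, 486, 500.3 and 417 CPM in siLuc and 522, 484 and 454 CPM in siStag3 cells. The Etv5 differences of 0.088 and 0.15 did not pass the threshold. After correction for GC content 3 further genes passed in siStag3 against untreated cells, Etv5 at 0.17, Spry4 at 0.71 and Dusp6 at 0.32 (edgeR adjusted p = 0.0186, 0.0260 and 0.0378).

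Counting libraries within their own set, 4 of the 10 genes, Dusp6, Spry4, Etv4 and Etv5, had every transfected library above every untreated library of the same set, a pattern shared by 8.84% of all genes tested. Egr1 had the opposite pattern, every transfected library below, which 10.6% of all genes tested had. Fos was below every untreated library of its set in 5 of the 6 transfected libraries.

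**Figure D2:**
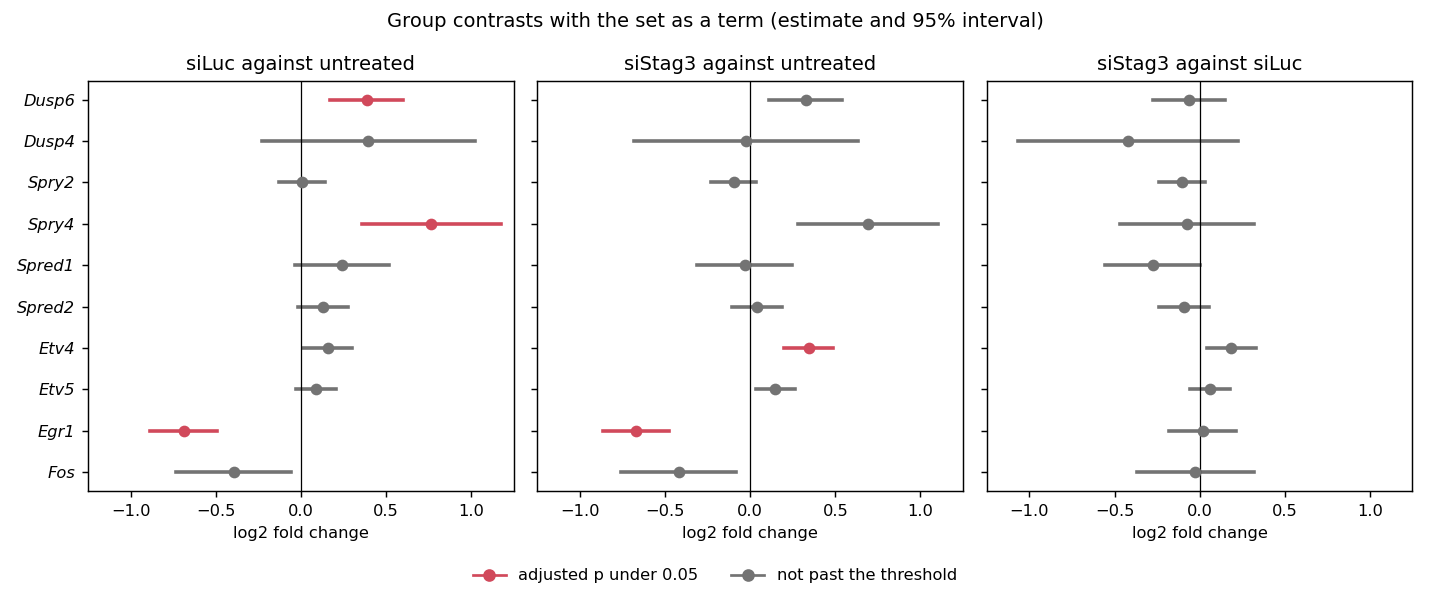
Log2 difference of each gene (horizontal axis) in siLuc against untreated, siStag3 against untreated and siStag3 against siLuc cells, with 95% intervals from the edgeR fit with a set term; red marks passed an adjusted p of 0.05 and grey marks did not. Egr1 lies at -0.69 and -0.67 against untreated cells and at 0.018 between the siRNA groups.

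The comparison of Stag3 siRNA with control siRNA asks what a partial fall of Stag3 RNA, to a mean of 14.8 from 24.2 CPM, adds to transfection. None of the 10 genes passed the threshold in the edgeR test, where 0.0281% of all genes tested did. DESeq2's Wald test also called 0 of the 9 genes to which it gave an adjusted p, where it called 0.154% of all genes. Egr1 differed by 0.018 between the siRNA groups (interval -0.18 to 0.22), Etv5 by 0.061 (interval -0.056 to 0.18), Dusp6 by -0.061 (interval -0.27 to 0.15) and Fos by -0.026 (interval -0.37 to 0.32). Spred2 differed by -0.090 (interval -0.24 to 0.057), Spry2 by -0.10 (interval -0.24 to 0.032), Spry4 by -0.075 (interval -0.47 to 0.32) and Dusp4, from few counts, by -0.42 (interval -1.07 to 0.22). These intervals bound the differences that the data allow and do not show that the groups were alike. The median over the 10 genes was -0.068, with 3 above 0 and 7 below, and all genes tested had a median of -0.0048.

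Etv4 gave the smallest p of the 10 in this comparison, at 0.19 (SE 0.0667, interval 0.043 to 0.33, edgeR unadjusted p = 0.0146, adjusted p = 0.505). Its siStag3 level exceeded its siLuc level by 0.21 and 0.070 in the 2 experiments of Set 1 and by 0.30 in Set 3, where the siStag3 and siLuc libraries carry different experiment numbers. Spred1 had a difference of -0.28 (SE 0.127, interval -0.56 to 0.0027, edgeR adjusted p = 0.638). In Set 1 the Spred1 difference was 0.011 and -0.15, and in Set 3 it was -0.72. The test of that difference between sets gave -0.65 (SE 0.182, edgeR unadjusted p = 0.0043, adjusted p = 0.0880), which did not pass, against 1.12% of all genes tested that did. Set 3 had 1 library a group, so the spread in that test came from Set 1 alone. Fos likewise differed by 0.10 and 0.19 in Set 1 and by -0.48 in Set 3, with a difference between sets of -0.62 (edgeR adjusted p = 0.196).

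The largest differences in these genes were between the sets. Egr1, Fos and Etv4 fell most, with log2 differences of -2.02 (SE 0.0866), -1.88 (SE 0.144) and -1.14 (SE 0.0611) in Set 3 against Set 1 and edgeR adjusted p-values of 2.6e-08, 2.0e-05 and 5.1e-08. In all, 8 of the 10 genes passed the threshold, 7 lower and 1 higher, where 42.7% of all genes tested passed, 21.2% lower and 21.4% higher. The median over the 10 genes was -0.32, against 0.0025 over all genes tested. Egr1 ran from 92.8 to 173 CPM in the 6 libraries of Set 1 and from 25.8 to 44.4 CPM in the 3 of Set 3, Fos from 29.3 to 49.4 against 8.48 to 11.8 CPM, and Etv4 from 32.0 to 42.5 against 14.9 to 19.5 CPM. None of these 3 ranges overlapped. The p-values for the sets measure the spread between libraries within sets, and libraries that share an experiment number were counted as independent. These p-values do not measure how much sets vary.

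The feedback genes differed less between sets. Spred1 fell by 0.76 (SE 0.113, edgeR adjusted p = 0.00041), from 29.1 to 36.7 CPM in Set 1 to 16.0 to 26.4 CPM in Set 3. Dusp6 at -0.41 (SE 0.0876), Etv5 at -0.20 (SE 0.0476) and Spred2 at -0.20 (SE 0.0597) also fell, with edgeR adjusted p-values of 0.0024, 0.0042 and 0.0162. Spry2 was the exception and rose by 0.21 (SE 0.0538, edgeR adjusted p = 0.0065), from 31.2 to 35.1 CPM in Set 1 to 37.2 to 40.9 CPM in Set 3. Spry4 at -0.23 and Dusp4 at 0.17 did not pass. Set 1 and Set 3 ranges were separate for 5 of the 10 genes, Spry2, Spred1, Etv4, Egr1 and Fos, and for 26.2% of all genes tested. When experiment number was added to the fit, the set term rested on 1 library of Set 3, siLuc, because the others are all of experiment 5. No calls are drawn from it. Its differences were -0.29 for Dusp6, 0.28 for Spry2, -0.34 for Spred1, -0.25 for Spred2 and -0.27 for Etv5. Egr1, Fos and Etv4 were lower in Set 3 in all 8 other settings. The Spred2 call was lost without the untreated library of Set 3, where its difference was -0.17. The summed primitive endoderm markers were at 60.9 to 78.5 CPM in Set 1 and 76.0 to 95.5 CPM in Set 3, which overlap. Most of that sum was Lama1, at means of 59.8 and 76.5 CPM. Of the 7 such markers tested, 3 were higher and 4 lower in Set 3, with a median of -0.080. The summed naive markers were at 5728 to 6001 against 5495 to 5595 CPM, with Tfcp2l1 alone at means of 1481 and 1215 CPM. Of the 14 naive markers, 6 were higher and 8 lower in Set 3, with a median of -0.032. The part of either list in the set difference was not tested.

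**Figure D3:**
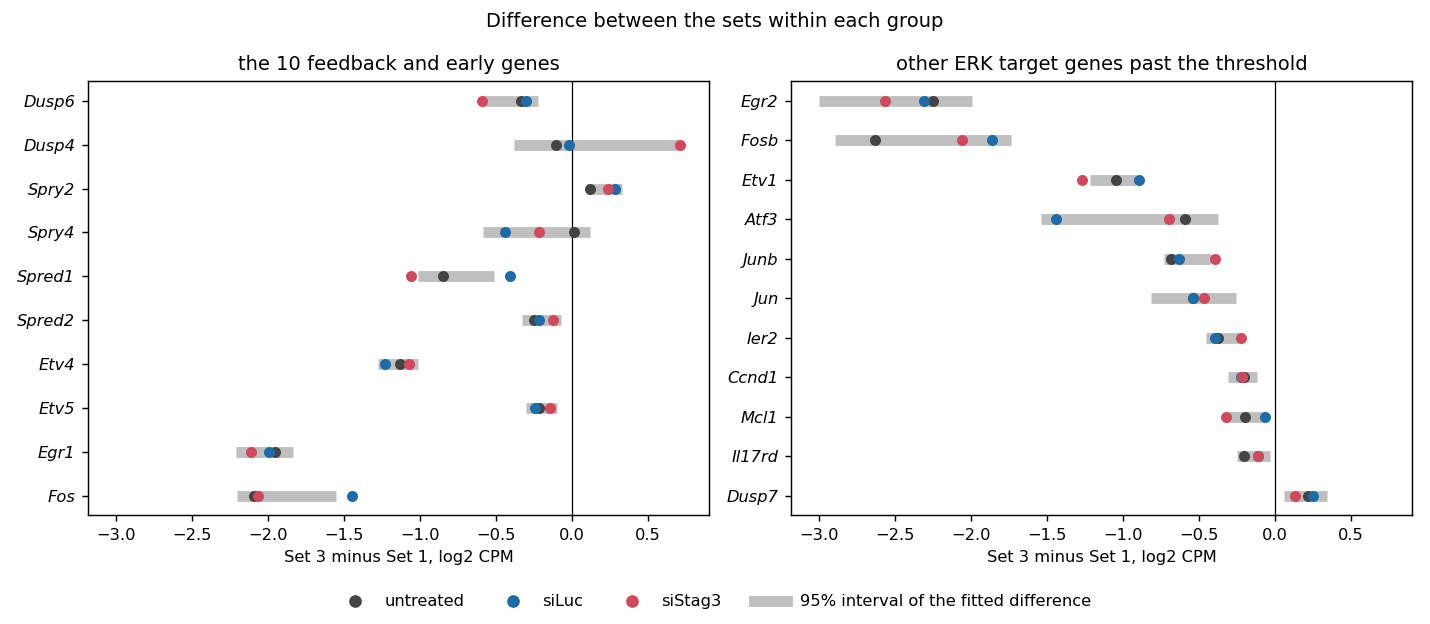
Log2 difference of Set 3 from Set 1 (horizontal axis) for each of the 10 genes, within untreated, siLuc and siStag3 cells (points), with the 95% interval of the fitted difference as a grey bar; the right panel shows the 11 other ERK target genes past the threshold. Egr1 lies between -2.11 and -1.95 in all 3 groups, and Spry2 lies on the positive side.

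The set difference appeared within each group. For Egr1 it was -1.95 in untreated, -1.99 in siLuc and -2.11 in siStag3 cells, and for Etv4 it was -1.13, -1.23 and -1.07. For Fos it was -2.09, -1.45 and -2.07, and for Spred1 -0.85, -0.41 and -1.06, so that for both genes the siLuc group had the smallest difference. Dusp4 and Spry4 did not have the same direction in all 3 groups. The rest of the 10 genes did, and the share of all genes tested with this pattern was not computed.

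**Figure D4:**
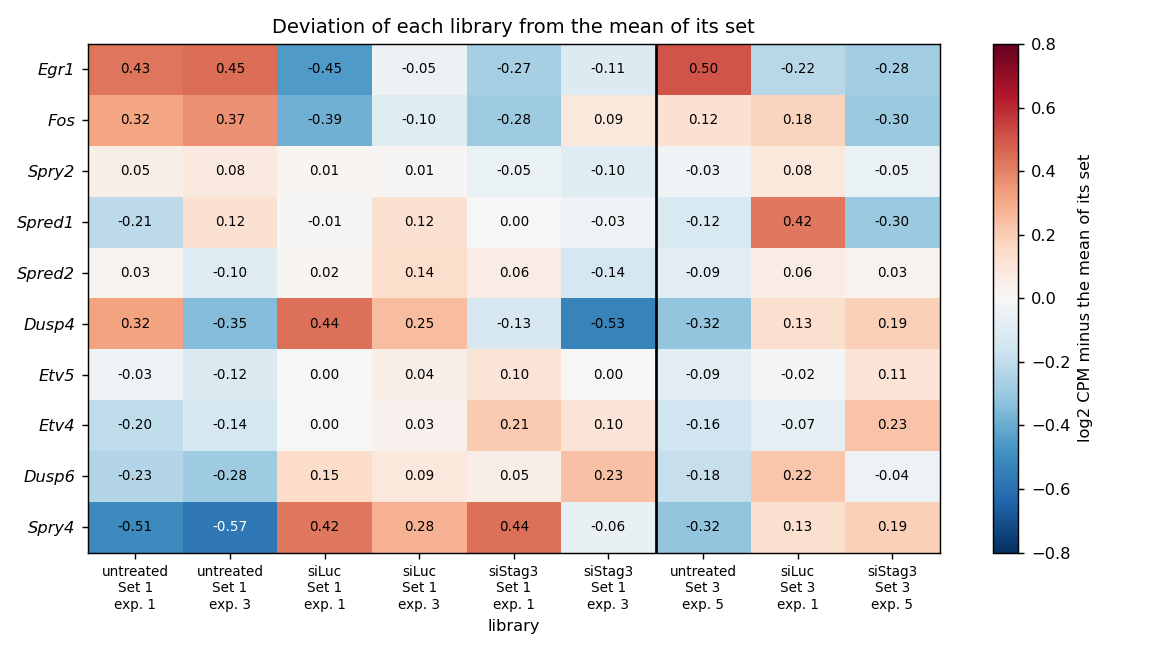
Genes (vertical axis) by libraries (horizontal axis), with the log2 CPM of the library minus the mean of its set as colour and as the number printed in each square. Within both sets Egr1 is positive in untreated libraries and negative in transfected ones, and Dusp6, Spry4 and Etv4 are negative in untreated libraries.

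Other known ERK feedback and target genes were read as a list of 30, of which 29 were in the table and 26 were tested. In siLuc against untreated cells 4 passed the threshold, 3 lower and 1 higher, with a list median of -0.062. The lower genes were Ier2, an immediate early gene, at -0.42 (SE 0.0637, edgeR adjusted p = 0.0035), Junb, an AP-1 subunit, at -0.36 (SE 0.0817, edgeR adjusted p = 0.0307), and Dusp1, a nuclear MAP kinase phosphatase, at -0.30 (SE 0.0788, edgeR adjusted p = 0.0472). Etv1, the third PEA3 group factor, was higher by 0.30 (SE 0.0778, edgeR adjusted p = 0.0459). The Ier2 call held in all 9 fits that left out 1 library, whereas the Junb call held in 2, and the Dusp1 and Etv1 calls in 1 each. With experiment number added to the fit, to which the siLuc library of Set 3 then adds nothing, Ier2 still passed. Junb at -0.33, Dusp1 at -0.30 and Etv1 at 0.22 did not (edgeR adjusted p = 0.201, 0.240 and 0.298). After correction for GC content the Ier2 and Dusp1 calls held. Junb at -0.17 and Etv1 at 0.11 did not pass (edgeR adjusted p = 0.148 and 0.278). Of all genes tested 4.20% passed in this comparison.

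In siStag3 against untreated cells 2 of the 26 passed, beside 2.53% of all genes tested. Ier2 was lower by -0.30 (SE 0.0636, edgeR adjusted p = 0.0227), and Atf3, a stress-inducible transcription factor, was higher by 1.56 (SE 0.293, edgeR adjusted p = 0.0123). Atf3 was low, at 0.365, 0.561 and 0.282 CPM in untreated, 0.796, 0.773 and 0.252 CPM in siLuc and 1.12, 1.67 and 0.825 CPM in siStag3 cells, from 8 to 53 counts per library. The siStag3 libraries were all above the untreated ones. In siStag3 against siLuc cells 0 of the 26 passed in the edgeR test. The Ier2 call held in 5 and the Atf3 call in 6 of the 9 fits that left out 1 library. After correction for GC content Atf3 still passed, and Ier2 at -0.19 did not (edgeR adjusted p = 0.0615).

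Between sets 11 of the 26 passed, 10 lower and 1 higher in Set 3, next to 42.7% of all genes tested. The largest were Egr2, a zinc finger factor related to Egr1, at -2.50 (SE 0.233), Fosb, an AP-1 subunit related to Fos, at -2.32 (SE 0.258), Etv1 at -1.07 (SE 0.0709) and Atf3 at -0.96 (SE 0.272). Egr2 ran from 1.66 to 3.43 CPM in Set 1 and from 0.297 to 0.628 CPM in Set 3, and Fosb from 3.57 to 10.9 against 1.12 to 1.41 CPM. Both ranges were separate. The call for Atf3 was lost without the siLuc library of Set 3 (-0.73, edgeR adjusted p = 0.0656). With experiment number added to the fit, the set term rested on the siLuc library of Set 3 alone, and the differences were -1.85 for Fosb and -1.42 for Atf3. Egr2, Fosb and Etv1 were lower in Set 3 in all 8 other settings.

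The genes of the cascade itself, from FGF ligands and receptors through RAS and RAF to MEK, ERK and its RSK kinases, were read as a list of 32, of which 30 were tested. None passed in siStag3 against untreated or against siLuc cells in the edgeR test. The ligand gene Fgf4 ran from 234 to 257 CPM and Map2k1, which encodes the MEK1 kinase, from 101 to 110 CPM over the 9 libraries. Between sets 15 of 30 passed, 5 higher and 10 lower in Set 3, a share near the 42.7% of all genes tested. The largest were the receptor gene Fgfr2 at 0.94 (SE 0.0815), the exchange factor gene Sos2 at -0.70 (SE 0.0851), the kinase gene Braf at -0.54 (SE 0.0830) and Rps6ka3, which encodes an RSK kinase, at -0.41 (SE 0.0644). With experiment number added to the fit, the set term rested on the siLuc library of Set 3 alone. The differences were then -0.54 for Sos2, -0.27 for Braf and -0.30 for Rps6ka3. Fgfr2 was higher in Set 3 in all 8 other settings.

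The genes most like Egr1 across the 9 libraries, by Pearson's r of log2 CPM, were Ccn1 (r = 0.997), Egr2 (r = 0.993) and Cyp4a12b (r = 0.991). With the set means removed they were Fgd2 (r = 0.983), 2510009E07Rik (r = 0.975) and Ccn1 (r = 0.974). The genes most like Dusp6 were Necab1 (r = 0.983), Rlf (r = 0.982) and Hmmr (r = 0.982), and with the set means removed Necab1 (r = 0.987), Mtx2 (r = 0.979) and Nrep (r = 0.975). These values describe 9 libraries that share groups and sets, and the genes were picked as the highest of all genes tested.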

How the data were processed

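Bulk mRNA libraries from 9 cultures were used, 3 a group. The authors deposited raw counts per gene as whole numbers, with genes below a sum of 9 over the libraries left out. FastQC, Salmon and DESeq2 and the build GRCm39 are named in the submitters' processing notes, without roles or versions; if Salmon made the counts they are rounded estimates. The strand setting is not given in the sources used here. Columns were assigned to groups by name. All 9 libraries entered 1 fit in edgeR 4.0.16 (R 4.3.3) with group and set terms, TMM normalization, filterByExpr, a robust quasi-likelihood fit and two-sided F tests, adjusted by the Benjamini-Hochberg method over 14246 genes with a threshold of 0.05. The set term was kept because libraries separate by set; the biological coefficient of variation was 7.62% with it and 14.6% without. Set 3 against Set 1 was tested by the set term of this fit. Whether a group difference varied between sets was tested by a group by set interaction. The fits were tested on simulated data. Lengths and GC content came from the longest coding transcript in GENCODE M21 (16604 of 16636 genes), used for the per-kilobase levels and the GC correction in 20 bins. DESeq2 1.42.0, other normalizations and filters, fewer libraries, an experiment term and leaving out each library were alternatives. SE is the size of the log2 difference divided by the square root of F. Floors of 3 counts cover counting error only. Named genes were the 10 genes, Stag3, up to 4 of the largest called genes per list and comparison (all called genes for siStag3 against siLuc), and the 3 genes most like Dusp6 and Egr1. Results for some cascade genes are not reported here. The members and lists were chosen with earlier results of these data known. Formative and primed markers summed to 267 to 307 CPM and fibroblast markers, 8 of 9 in the table, to 3.50 to 5.78 CPM over all libraries.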

Additional observations from a re-analysis of the deposited data

How the results depend on the processing

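Over the 10 genes and their alternatives, 735 of 822 values kept their direction and side of the threshold, 38 lost a call, 13 gained one and 36 changed sign. Counts of genes called for siStag3 against siLuc, siLuc against untreated, siStag3 against untreated and Set 3 against Set 1 were 4, 598, 361 and 6076. With no set term the first 3 were 0 (307 at an unadjusted p under 0.05 in edgeR), 1 and 2. DESeq2's Wald test gave 22 and 1337 for the first and second; only the 6 libraries compared gave 1 and 1789. GC correction gave 61, 998 and 965 for the first 3; Set 1 alone gave 303 and 952 for the second and the third. Set and experiment terms gave 2 and 86 for the first and second and 699 for the sets. Leaving out 1 library gave 0 to 4, 113 to 2469, 81 to 1627 and 4167 to 6369. Differences between sets were called for 160, 2 and 1 genes, for 85 of the first kind with DESeq2 size factors, and for 18, 7 and 2 with GC correction. With total count only, the split of higher and lower calls was 161 and 600 in place of 235 and 363 for siLuc against untreated, 100 and 256 in place of 153 and 208 for siStag3 against untreated, and 3834 and 2378 in place of 3053 and 3023 for the sets. Sign changes for siStag3 against siLuc were Dusp6 at 0.026 and Fos at 0.14 in Set 1 alone, Fos at 0.069 with no set term and 0.15 with set and experiment terms, and Egr1 at -0.023 with GC correction. For siLuc against untreated Spry2 was -0.046 with total count only and in Set 1 alone, -0.054 with GC correction and -0.030 with set and experiment terms. For siStag3 against untreated Dusp4 was 0.050 with GC correction, Spred1 0.025 in Set 1 alone and Spred2 -0.0057 with total count only; Dusp4 was -0.25 between sets with set and experiment terms. Between-set differences that changed sign with GC correction were Spry2 at 0.061 and Etv4 at -0.15 (siStag3 against siLuc), Etv4 at 0.0033, Etv5 at 0.011 and Egr1 at 0.033 (siLuc against untreated), and Etv4 at -0.15 and Fos at -0.028 (siStag3 against untreated). Leaving out 1 library gave sign changes for siStag3 against siLuc in Dusp6 (-0.15 to 0.022), Spry4 (-0.24 to 0.060), Egr1 (-0.10 to 0.14) and Fos (-0.18 to 0.15), for siLuc against untreated in Spry2 (-0.041 to 0.030), for siStag3 against untreated in Dusp4 (-0.34 to 0.25), Spred1 (-0.11 to 0.092) and Spred2 (-0.0034 to 0.10), and between sets in Dusp4 (-0.092 to 0.34). The cause was not tested. No paired analysis was possible because replicate numbers of the labels do not appear in the column names. The fit with set and experiment terms, which blocks libraries by those numbers, is the nearest to one. The fit with set and experiment terms matches the siLuc library of Set 3 exactly, and its effects are given for some genes only. Depth limits Dusp4 and Spry4.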
